A study of Homo sapiens with 20 samples.

Results

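The comparison described here sets IMR-32 cells given the higher of 2 doses of Dyngo-4a against cells given the lower dose, over all genes that passed a filter on low counts. The members are 8 of the 20 libraries of the series: 4 of the high dose (2.26 µM) and 4 of the low dose (1 µM), chosen by the treatment in their labels and not by any measured value. IMR-32 is an established human neuroblastoma line that carries an amplified MYCN gene, and its labels give it as wild type. All cells had 24 hours of treatment after a first 24 hours to attach, and 4 libraries of cells given the solvent DMSO serve below as the level without the drug. The other 8 libraries of the series were of prexasertib (2 nM) and of a combination whose doses the labels do not state. They entered only the filter on low counts, the scaling factors and the estimate of the spread between replicates. The library names mark the higher dose as an IC50, an inhibitory concentration, and the labels do not say of which response.

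Dyngo-4a is a small molecule known as an inhibitor of dynamins, the GTPases that cut endocytic vesicles from the plasma membrane. The title of the series names MUS81, a nuclease that cuts stalled replication forks, and CHK1, a kinase that holds the cell cycle when replication fails. Many of the genes below belong to the integrated stress response. In that response, kinases that sense missing amino acids, misfolded protein in the endoplasmic reticulum, haem shortage or viral RNA phosphorylate the initiation factor eIF2. General translation then falls while the transcription factor ATF4 is made, and ATF4 with its CEBP partners drives genes of amino acid uptake, amino acid synthesis and tRNA charging. Chaperones, in turn, are driven mainly by heat shock factor 1, and ribosome production by MYC-type factors.

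The 8 libraries held between 4491004 and 6366574 counts, and levels are given below as CPM, the count of a gene per 1e6 counts of its scaled library. A count of 0 in a library allows a level of up to 0.471 to 0.668 CPM (3 counts, counting error only). Markers of the adrenergic neuroblast state summed to 7135 to 7540 CPM in the low dose and to 6513 to 7227 CPM in the high dose, and tyrosine hydroxylase, one of the defining genes, was near 1 CPM throughout. Of 8 fibroblast markers, vimentin, COL1A1 and FN1 were the 3 above 1 CPM. The vimentin gene VIM rose by 0.38 on the log2 scale between the doses (adjusted p = 0.00303) and COL1A1 fell by 1.09 (adjusted p = 3.29e-05). FN1 was not called (-0.75), though it was without high-dose replicate 3 (-1.28, adjusted p = 0.0401). PRRX1 and DCN were at 0 in all 8 libraries. Endothelial and leukocyte markers summed to at most 1.29 and 2.67 CPM. In a principal component analysis of the 12 libraries, the first component (29.3% of the variance) put the high-dose libraries at 27.8 to 39.8, the low-dose libraries at -14.3 to -9.88 and DMSO at -21.6 to -19.0. The second (14.3%) separated replicates 1 and 3 from replicates 2 and 4 in every group. All libraries carry the same batch label, and whether replicates came from separate cultures is not stated, so the p-values measure the spread between these libraries, which may be technical. In bulk RNA, fewer cells of a type and less RNA per cell cannot be told apart.

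Of 13729 genes tested, 2767 (20.2%) were called different between the doses, with 1382 (10.1%) higher and 1385 (10.1%) lower in the high dose (edgeR quasi-likelihood test, Benjamini-Hochberg adjusted p under 0.05). These shares of 10.1% in each direction are the background for the counts of list members below. Most changes were small: 1635 of the called genes differed by less than 1.5-fold, 168 were at least 2-fold higher and 151 at least 2-fold lower. In 2878 genes (21% of those tested) the 4 high-dose libraries did not overlap the 4 low-dose ones. The low dose alone had moved far fewer genes, with 36 (0.262%) called against DMSO, while 3456 (25.2%) were called between the high dose and DMSO. These contrasts share libraries and are given only side by side. Protein-coding genes were called in both directions at similar shares (11.3% higher and 10.6% lower of 11636), whereas among 399 lincRNAs 5.01% were higher and 11.3% lower. The plot of fold change against level shows both arms across the range of expression.

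**Figure D1:**
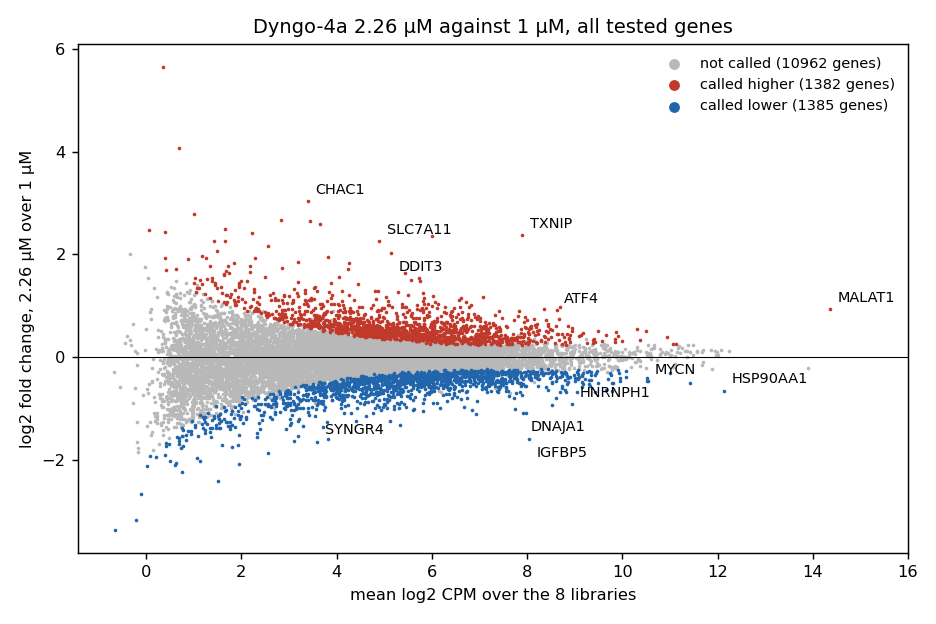
Each point is 1 of 13729 tested genes, with its mean log2 CPM over the 8 libraries on the horizontal axis and its log2 fold change (2.26 µM over 1 µM of Dyngo-4a) on the vertical axis. Red marks the 1382 genes called higher and blue the 1385 called lower. TXNIP at 2.37 and CHAC1 at 3.03 stand above the other labelled genes, IGFBP5 at -1.59 and SYNGR4 at -1.65 below them.

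Genes of the ATF4 axis rose together. Of 15 tested regulators, 12 were higher and 0 lower, with a median log2 fold change of 1.02 against -0.01 over all tested genes. For this and every other list below with 0 calls in a direction, DESeq2 and limma-voom also gave 0 calls, and 0 or 1 members were at an unadjusted p under 0.05 in edgeR. CHAC1, a glutathione-degrading enzyme, was at 2.37, 5.52, 1.96 and 4.54 CPM in low-dose replicates 1 to 4 and at 29.97, 42.1, 19.8 and 30.6 CPM in high-dose replicates 1 to 4, a log2 fold change of 3.03 ± 0.26 (SE), adjusted p = 6.38e-11. Even its lowest high-dose library stood above every low-dose and DMSO library (2.76 to 3.83 CPM). DDIT3, which encodes the stress transcription factor CHOP, was at 15.5, 22.7, 16.99 and 15.3 CPM in the low dose and at 56.4, 84.6, 60.6 and 86.6 CPM in the high dose (2.02 ± 0.15 SE, adjusted p = 1.97e-12). The low-dose range of DDIT3 covered that of DMSO (16.4 to 20.7 CPM). ATF4 itself went from 318, 292, 239 and 309.9 CPM to 467, 592, 499 and 625 CPM (0.91 ± 0.10 SE, adjusted p = 3.27e-08), again with no overlap. Among its partners and feedback genes, CREBRF changed by 1.496, ATF3 by 1.71, JDP2 by 1.35, ATF5 by 1.21, TRIB3 by 1.11, CEBPB by 1.02 and PPP1R15A, the phosphatase subunit that reverses eIF2 phosphorylation, by 0.89. TRIB3 was not called in replicates 1 and 3 alone (0.45, adjusted p = 0.385). Of the 4 eIF2 kinases, EIF2AK3 (PERK), the sensor of the endoplasmic reticulum, was called higher at 0.48 (adjusted p = 0.0373). That call was lost without high-dose replicate 1 or 3 or low-dose replicate 1, 3 or 4 (adjusted p up to 0.0997). It was also lost with no filter on low counts (0.119). The haem, viral RNA and amino acid sensors EIF2AK1, EIF2AK2 and EIF2AK4 were not called, at 0.13, 0.11 and 0.12. Their transcript levels say nothing of kinase activity.

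Of 20 tested amino acid transporters 7 were higher and 1 lower (2 lower with the replicate block), and of 23 enzymes of amino acid and one-carbon metabolism 9 were higher and 3 lower. The cystine importer had both of its chains among the risers. SLC7A11, its transport chain, was at 17.5, 11.2, 12.6 and 13.4 CPM in the low dose and 77.5, 72.6, 42.1 and 69.03 CPM in the high dose (2.26 ± 0.16 SE, adjusted p = 1.55e-12), with replicate 3 the lowest of the high dose and still above all low-dose libraries. SLC3A2, the shared heavy chain, was at 82.01, 75.1, 62.1 and 70.7 CPM and 156, 160.5, 138 and 154 CPM (1.07 ± 0.10 SE, adjusted p = 2.23e-10). For both, the low-dose mean lay below the DMSO mean, by log2 changes of -0.43 and -0.20 that were not called (adjusted p = 0.52 and 0.658). The cationic carrier SLC7A1 changed by 0.83, the glycine carrier SLC6A9 by 1.32 and the neutral carrier SLC1A4 by 1.01, while SLC7A6 fell by 0.44 (adjusted p = 0.0454). The SLC7A6 call was lost without high-dose replicate 2, 3 or 4 or low-dose replicate 1, 3 or 4 (adjusted p up to 0.158).

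Asparagine synthetase, ASNS, had the largest fold among the enzymes. It was at 2.16, 2.05, 2.83 and 3.45 CPM in the low dose and 16.6, 14.9, 18.1 and 17.5 CPM in the high dose (2.67 ± 0.28 SE, adjusted p = 1.04e-08), a 6.37-fold rise from a level close to that of DMSO (0.800 to 3.02 CPM). PHGDH and PSAT1 of serine synthesis rose by 0.76 and 0.97, and mitochondrial SHMT2 and MTHFD2 of the one-carbon cycle by 0.59 and 0.58. Cytosolic SHMT1 was not called, at -0.17. CTH, which makes cysteine, changed by 1.15, and GPT2, a mitochondrial transaminase, by 0.88 (from 49.2, 41.2, 43.4 and 47.1 CPM to 71.8, 95.6, 71.1 and 94.1 CPM, adjusted p = 1.91e-06). Of the enzymes of proline synthesis, ALDH18A1, the first, fell by 0.48, a call lost in replicates 1 and 3 alone (adjusted p = 0.0688). PYCR3, which makes proline in the last step, was at 12.7, 12.3, 15.9 and 13.8 CPM in the low dose and 7.49, 7.38, 3.99 and 4.06 CPM in the high dose (-1.25 ± 0.22 SE, adjusted p = 4.77e-05). Its paralog PYCR1 was not called, at 0.08. With the replicate number as a block, the lower enzymes numbered 6 in place of 3.

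Cytosolic and mitochondrial tRNA synthetases, which load amino acids onto tRNA in the 2 compartments, did not move alike in their counts. Of 20 cytosolic enzymes 9 were higher and 1 lower. Of 17 mitochondrial ones 0 were higher and 2 lower (4 lower with the block, 1 lower without low-dose replicate 2 or 4). These 2 are 11.8% of the mitochondrial list, near the 10.1% called lower of all tested genes. Of the cytosolic enzymes 10 had a positive and 10 a negative log2 fold change, at a median of 0.11. The difference between the lists was not tested. The summed level of the cytosolic list was 2808 to 2979 CPM in the low dose and 3169 to 3821 CPM in the high dose, that of the mitochondrial list 478 to 509 CPM and 428 to 452 CPM, and neither pair of ranges overlapped. CARS1, for cysteine, was at 58.1, 75.3, 66.2 and 61.98 CPM in the low dose and 146, 147, 121 and 168 CPM in the high dose (1.15 ± 0.10 SE, adjusted p = 2.23e-10). Next came AARS1 at 0.64, SARS1 at 0.64, GARS1 at 0.59, TARS1 at 0.55, EPRS1 at 0.48, MARS1 at 0.43, YARS1 at 0.38 and NARS1 at 0.34. NARS1 lost its call without high-dose replicate 2 (adjusted p = 0.0564). VARS1, for valine, was the exception that fell, from 84.6, 103, 85.6 and 83.97 CPM to 70.8, 64.1, 68.7 and 62.4 CPM (-0.43 ± 0.10 SE, adjusted p = 0.00124). IARS1, KARS1 and RARS1 each differed by -0.02 and were not called. Of the mitochondrial enzymes NARS2 fell by 0.47, a call lost without low-dose replicate 2 or 4 (adjusted p up to 0.0526).

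Promoter windows of RefSeq (GRCh38.p14, 250 bases before to 50 after the start of a gene) were searched on both strands for TGATGNAA, the composite element that ATF4 and CEBP proteins are known to bind. The letters were in 1.49% of the windows of 10002 tested genes that had one and in 3.62% of all 35116 windows. Among cytosolic synthetases called higher, 5 of 8 with a window held them, against 1 of 8 not called. Among the other lists called higher they were in 2 of 12 ATF4 axis regulators, 2 of 6 transporters, 2 of 6 enzymes and 0 of 3 mTORC1 brakes. Of the members of these lists that were not called, they were in 0 of 2 regulators, 2 of 9 transporters, 1 of 6 enzymes and 1 of 7 brakes, and in 1 of 13 mitochondrial synthetases. They were in 0 of the 4 windows of members of these lists and of the mitochondrial synthetases called lower. A match is a description of the letters, not a binding site. The 30 bases around each match are shown for the 5 synthetases that rose, for IARS1, which holds the same letters and did not change, and for CHAC1, ASNS and SLC7A1, which are 3 of the genes of the other lists that rose and hold the letters, each in the direction of its gene and with the match in capitals (TTGCATCA is the reverse complement of TGATGCAA).
CARS1, chr11:3057407-3057436, minus strand: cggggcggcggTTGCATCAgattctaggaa
AARS1, chr16:70289675-70289704, minus strand: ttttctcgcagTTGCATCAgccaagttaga
TARS1, chr5:33440956-33440985, plus strand: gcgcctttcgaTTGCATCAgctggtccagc
MARS1, chr12:57488053-57488082, plus strand: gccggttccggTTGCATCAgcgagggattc
NARS1, chr18:57621804-57621833, minus strand: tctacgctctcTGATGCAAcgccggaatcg
IARS1, chr9:92293692-92293721, minus strand: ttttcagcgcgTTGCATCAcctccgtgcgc
CHAC1, chr15:40953251-40953280, plus strand: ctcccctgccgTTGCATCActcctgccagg
ASNS, chr7:97872458-97872487, minus strand: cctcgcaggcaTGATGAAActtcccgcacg
SLC7A1, chr13:29595663-29595692, minus strand: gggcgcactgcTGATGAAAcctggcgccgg
In MARS1, CARS1, TARS1, SLC7A1, NARS1 and IARS1 the match begins within 15 bases of the start, at positions -4, -2, 3, 8, 15 and -13 counted from the first transcribed base as 1, with the base before it as -1. In CHAC1 it begins at -209, in ASNS at -68 and in AARS1 at -187.

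**Figure D2:**
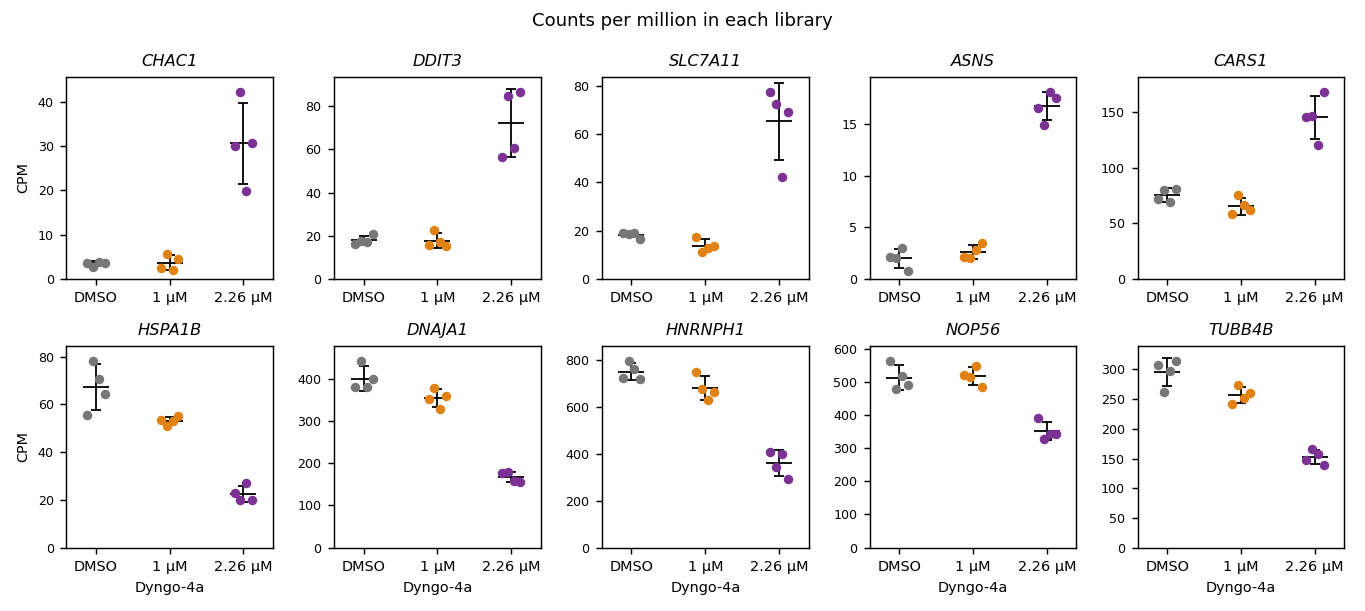
Each panel gives 1 gene, with CPM on a linear vertical axis from 0 and the groups DMSO, 1 µM and 2.26 µM of Dyngo-4a on the horizontal axis. Points are the 4 libraries of a group, the bar is their mean and the whiskers 1 SD. In all 10 panels the high-dose libraries stand apart from the low-dose ones, above them for CHAC1, DDIT3, SLC7A11, ASNS and CARS1 and below them for HSPA1B, DNAJA1, HNRNPH1, NOP56 and TUBB4B.

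Brakes on the growth kinase mTORC1 were partly higher, with 3 of 12 called higher and 0 lower (1 lower with the block or without high-dose replicate 3). SESN2, which senses leucine and holds mTORC1 off, was at 24.6, 24.3, 22.4 and 26.4 CPM in the low dose and 70.8, 100.5, 66.6 and 67.4 CPM in the high dose (1.64 ± 0.14 SE, adjusted p = 4.76e-11). DDIT4 (REDD1) was at 51.4, 45.6, 43.8 and 45.3 CPM and 85.6, 108, 73.8 and 122 CPM (1.07 ± 0.12 SE, adjusted p = 4.52e-08), and it had already been higher in the low dose than in DMSO (0.58, adjusted p = 0.0373). SESN3 changed by 0.48 (adjusted p = 0.0433), and this call was lost without high-dose replicate 3 or 4, without low-dose replicate 1, 2 or 3 (adjusted p up to 0.158) and with library sizes alone as the scaling (0.0596). The TSC, GATOR1 and PRAS40 genes were not called.

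TXNIP, which blocks thioredoxin and glucose uptake, had the smallest p-value of the genes named here. It was at 98.6, 101, 111 and 111 CPM in the low dose and 445, 543, 546 and 647 CPM in the high dose (2.37 ± 0.10 SE, adjusted p = 1.55e-19), a 5.18-fold rise. It had already been higher in the low dose than in DMSO (57.5 to 72.7 CPM), by 0.68 (adjusted p = 0.000266). Its relatives ARRDC4 (from 10.1, 9.31, 10.2 and 10.5 CPM to 23.3, 31.9, 39.2 and 48.9 CPM, 1.83) and ARRDC3 (1.00) rose too, so that 3 of the 8 genes on the list of arrestin-domain genes and their regulators were higher and 0 lower (1 lower without high-dose replicate 3). MLX, MLXIP and MLXIPL, which encode the glucose-sensing factors that drive TXNIP, were not called, at 0.09, -0.01 and -0.13.

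The endoplasmic reticulum genes gave 5 of 21 higher and 2 lower, with a median of 0.01. Those that rose were regulators and parts of the degradation route: the sensor ERN1 (IRE1) at 1.44, its target XBP1 at 0.91, HERPUD1 at 1.14, DNAJB9 at 0.69 and SEL1L at 0.42. In replicates 1 and 3 alone DNAJB9 and SEL1L were not called (0.24 and 0.33, adjusted p = 0.57 and 0.123). HERPUD1 was at 39.7, 44.3, 37.9 and 33.4 CPM in the low dose and 68.6, 98.1, 69.6 and 107 CPM in the high dose (adjusted p = 3.02e-08). Of the lumenal chaperone genes looked at, HSPA5 (BiP) was not called (0.24, adjusted p = 0.144, and 0.0133 with the replicate block), nor were HSP90B1 (-0.05), CALR (0.01) or PDIA4 (-0.17). SDF2L1 fell from 77.5, 79.8, 74.1 and 89.8 CPM to 54.4, 49.3, 45.2 and 50.8 CPM (-0.69 ± 0.10 SE, adjusted p = 4.29e-06), and CRELD2 fell by 0.44. With the block the lower members numbered 4 in place of 2, and without high-dose replicate 1 or 4 or low-dose replicate 1 CRELD2 lost its call (adjusted p up to 0.127).

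Of 25 cytosolic and mitochondrial chaperones 12 were called lower and 0 higher, at a median of -0.32. Together these 25 transcripts went from 13283 to 15080 CPM in the low dose to 9593 to 11110 CPM in the high dose, with DMSO at 16248 to 17674 CPM. HSPA1B, an inducible HSP70, was at 53.3, 50.97, 52.9 and 55.3 CPM and 22.9, 19.99, 26.8 and 20.1 CPM (-1.24 ± 0.15 SE, adjusted p = 1.46e-07). Its near-identical copy HSPA1A did not pass the filter, so reads of the pair may be split. DNAJA1, an HSP40 partner, was at 352, 377, 327 and 359 CPM and 176, 179, 157 and 155 CPM (-1.09 ± 0.09 SE, adjusted p = 1.66e-11). HSPE1, the cap of the mitochondrial chaperonin, was at 276, 296, 298 and 346 CPM and 135, 165, 141 and 163 CPM (-1.01 ± 0.12 SE, adjusted p = 7.07e-08), while HSPD1, its barrel, was not called (-0.23, adjusted p = 0.0737, and 0.00267 with the replicate block, 0.0328 with library sizes alone, 0.0430 with DESeq2 and 0.0214 without high-dose replicate 2). HSPB1 fell by 0.93, HSPA8 by 0.74 and HSP90AA1, the most abundant member, by 0.65 (from 5527, 5811, 5224 and 6127 CPM to 3296, 3659, 3340.1 and 4137 CPM). The factors HSF1 (0.02) and HSF2 (0.20) were not called.

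The heat shock letters GAANNTTC, a pair of the inverted units that heat shock factors are known to bind, were in 4.36% of the windows of tested genes and in 6.77% of all windows. They were in 4 of 11 windows of chaperones called lower and in 2 of 11 not called. The 4 genes called lower that hold the letters are shown, with the match in capitals and the first match printed where there are more.
HSPA1B, chr6:31827622-31827651, plus strand: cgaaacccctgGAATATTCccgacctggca
DNAJA1, chr9:33025064-33025093, plus strand: aaagggctccaGAAGATTCcacgagcgccg
HSPB1, chr7:76302480-76302509, plus strand: ccttaacgagaGAAGGTTCcagatgagggc
HSPA8, chr11:123062348-123062377, minus strand: ggggcgagcttGAAAGTTCcagaacgctgc
The match begins at -105 in HSPA1B, at -198 in DNAJA1, at -182 in HSPB1 and at -230 in HSPA8.

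Of the 8 subunits of the CCT chaperonin, which folds actin and tubulin, 3 were called lower and 0 higher, and their summed levels overlapped between the doses (3061 to 3534 CPM in the low dose and 2824 to 3360 CPM in the high dose). TCP1 fell from 275, 294, 272 and 267 CPM to 202, 205, 214 and 206 CPM (-0.42 ± 0.09 SE, adjusted p = 0.000493), and CCT7 and CCT5 fell by 0.35 and 0.30, calls that were each lost without low-dose replicate 2 or 4 or high-dose replicate 2 (adjusted p up to 0.0767 for CCT7 and 0.151 for CCT5), the latter also without high-dose replicate 1 or 3. Of 31 proteasome subunits 14 were lower and 0 higher, with a median of -0.28, and the number was 8 and 9 without low-dose replicates 4 and 2, respectively. PSMD1 was at 451, 462, 434 and 495 CPM and 327, 308, 311 and 383 CPM (-0.47 ± 0.09 SE, adjusted p = 0.000179). PSMA3 fell by 0.57 and PSMD12 by 0.47. The summed proteasome level was 7765 to 8922 CPM in DMSO, 6567 to 7577 CPM in the low dose and 5593 to 6409 CPM in the high dose.

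The translation machinery did not move in one direction. Of 78 cytosolic ribosomal protein genes tested, 0 were called by edgeR, DESeq2 or limma-voom, with 1 at an unadjusted p under 0.05 and a median of 0.07. With the replicate block 5 were higher and 1 lower, and without high-dose replicate 1 there were 2 higher. Their summed level was 106168 to 117663 CPM in the low dose and 101045 to 128667 CPM in the high dose, so the ranges overlapped. Of 37 genes that build the ribosome 19 were called lower and 1 higher, at a median of -0.26. NOP56, a core protein of box C/D snoRNPs, was at 522, 514, 549 and 485 CPM and 390.3, 329, 342 and 342 CPM (-0.56 ± 0.08 SE, adjusted p = 5.96e-06). UTP20 fell by 0.65, NOP16 by 0.76 and POLR1B, a subunit of RNA polymerase I, by 0.64. The gene called higher was TAF1D (0.38), which also hosts snoRNAs.

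Of 21 snoRNA host genes and long noncoding RNAs 12 were called higher and 1 lower, at a median of 0.38. TAF1D, given above, is on this list too and is counted again among the higher genes. ZFAS1 was at 106, 131, 125 and 146 CPM in the low dose and 166, 243, 252 and 285 CPM in the high dose (0.90 ± 0.14 SE, adjusted p = 6.37e-05). EPB41L4A-AS1 was at 56.8, 61.5, 64.05 and 78.3 CPM and 106, 141, 169 and 149 CPM (1.12 ± 0.12 SE, adjusted p = 2.03e-08). The labels do not say whether the authors counted by strand, so its reads and those of a gene on the other strand may not be separable. SNHG7 changed by 0.83, GAS5 by 0.62 and SNHG8 by 0.57, and in GAS5 the groups overlapped. SNHG4 fell by 0.85. With the block 3 were lower, and without high-dose replicate 4 or low-dose replicate 2 there were 2. MALAT1, a nuclear transcript, took 2.80% to 3.15% of all counts in the high dose, 1.18% to 2.08% in the low dose and 0.941% to 1.76% in DMSO. Its part in the levels of the other genes was not tested, and scaling by library sizes alone, which keeps MALAT1 in the total, gave 2771 called genes, 1254 higher and 1517 lower.

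Initiation and elongation factors went both ways, with 6 of 38 higher and 8 lower. The paralogous helicases EIF4A2 and EIF4A1 differed in sign: EIF4A2 went from 253, 295, 251 and 316 CPM to 339, 478, 432 and 493 CPM (0.64 ± 0.11 SE, adjusted p = 2.39e-05), and EIF4A1 from 22.01, 14.8, 16.8 and 15.1 CPM to 12.6, 9.36, 6.35 and 8.68 CPM (-0.89 ± 0.20 SE, adjusted p = 0.00148). EIF4EBP2, which holds the cap-binding factor, fell by 0.66. EIF2A changed by 0.62, EIF2S2, the beta subunit of eIF2, by 0.58 and EIF1 by 0.60, while EIF5A fell by 0.65. With the block 10 were higher, and without high-dose replicate 4 there were 5 lower.

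Transcripts for mitochondrial proteins were lower in part. Of 74 nuclear genes of the respiratory chain, 24 were lower and 0 higher, at a median of -0.23. The number was 43 with the replicate block, and 13 and 15 without low-dose replicates 4 and 2, respectively. ATP5MC1, a ring subunit of ATP synthase, was at 442, 428, 384 and 401 CPM and 273, 287, 282 and 258 CPM (-0.59 ± 0.09 SE, adjusted p = 1.26e-05). ATP5MF fell by 0.57, and NDUFS6 of complex I by 0.43. Complex I gave 15 of the 24, out of 36 tested, among them NDUFA3 at -0.50. ATP synthase gave 5 of 15, complex III 2 of 9, complex IV 2 of 10 and complex II 0 of 4. Mitochondrial ribosomal proteins gave 13 lower and 6 higher of 74. With the block 20 were lower. The lower calls were 5 without low-dose replicate 4, 8 without low-dose replicate 2 or high-dose replicate 1 and 7 without high-dose replicate 3. MRPL18 fell by 0.52, MRPS6 by 0.57 and MRPL20 by 0.59, while MRPS2 changed by 0.44. Without high-dose replicate 4 the higher calls were 3.

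**Figure D3:**
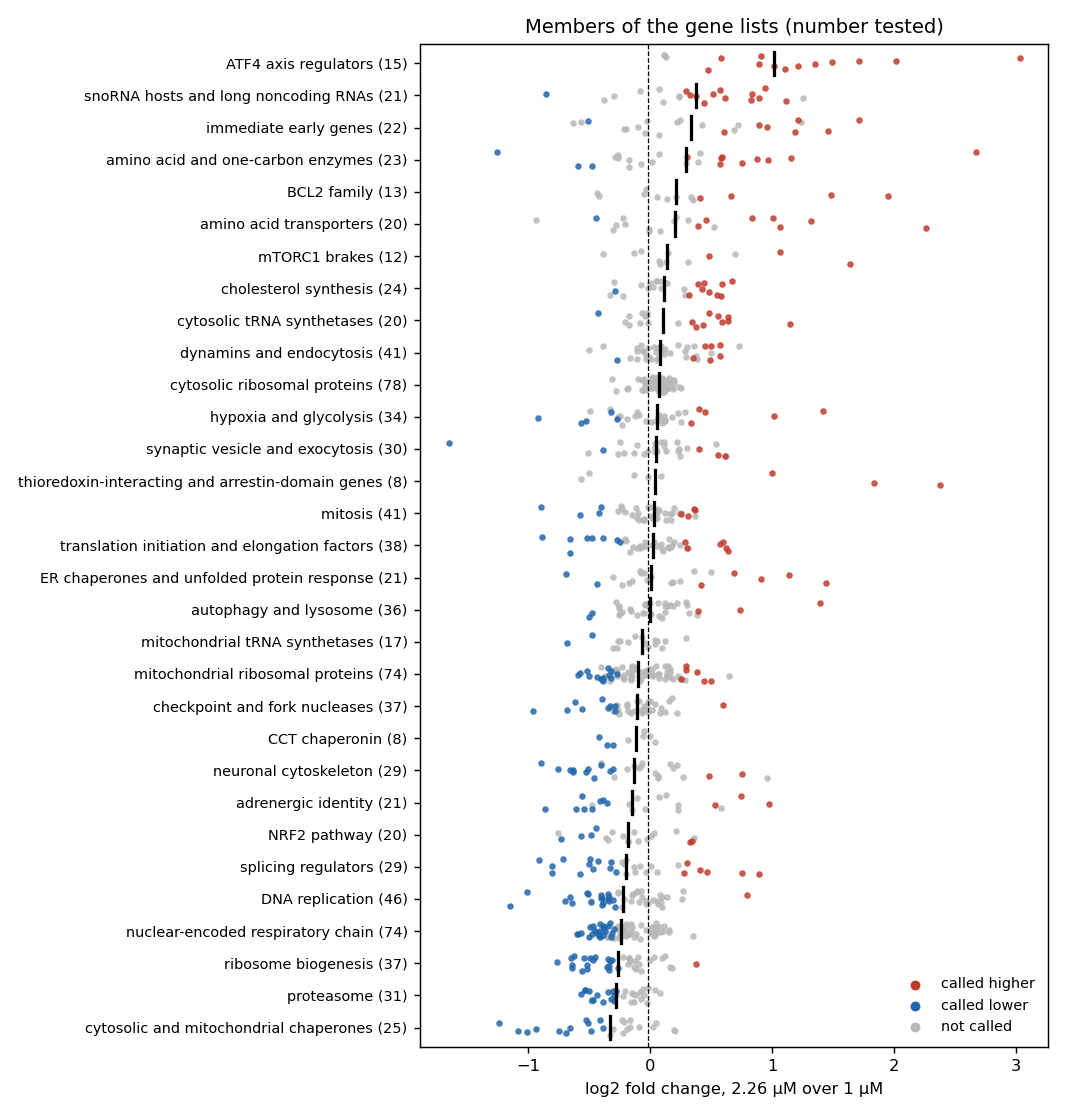
Each row is 1 gene list with the number of its tested members, and each point is a member at its log2 fold change (2.26 µM over 1 µM of Dyngo-4a), red where called higher, blue where called lower and grey where not called. Vertical offsets within a row are for display, the black bar is the median of the list and the dashed line the median over all tested genes (-0.01). ATF4 axis regulators lie highest with a median of 1.02 and chaperones lowest with -0.32, and the 78 cytosolic ribosomal proteins lie close together at 0.07.

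Of 29 splicing regulators 12 were called lower and 6 higher. HNRNPH1, which binds G-rich exon sequences, was at 748, 678, 629 and 661 CPM in the low dose and 408, 343, 401 and 291 CPM in the high dose (-0.91 ± 0.09 SE, adjusted p = 4.07e-09). HNRNPM was at 493, 549, 490.0 and 516 CPM and 321, 278, 285 and 293 CPM (-0.80 ± 0.08 SE, adjusted p = 4.07e-09), and SRSF2, an activator of exon inclusion, at 272, 282, 263 and 299.9 CPM and 157, 164, 160.0 and 158 CPM (-0.81 ± 0.09 SE, adjusted p = 2.63e-08). All 3 were without overlap between the doses, as were 21% of all tested genes. They were named for the smallest p-values of the list, so that trait is not a separate result. The SR protein genes SRSF5 and SRSF6 also fell, by 0.71 and 0.49. CLK1 and CLK4, which encode kinases that phosphorylate SR proteins, rose by 0.76 and 0.90, and RBM39 by 0.46.

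Of 46 replication genes 19 were called lower and 1 higher (2 higher with the block), with 12 lower when low-dose replicate 4 was left out. RRM2, the ribonucleotide reductase subunit that supplies deoxynucleotides, was at 204, 229, 199.6 and 199 CPM and 137, 128, 127 and 135 CPM (-0.66 ± 0.09 SE, adjusted p = 1.88e-06). MCM5 of the replicative helicase was at 85.7, 80.2, 73.9 and 64.7 CPM and 47.9, 45.4, 48.4 and 45.6 CPM (-0.70 ± 0.10 SE, adjusted p = 4.08e-06). ASF1B, a histone chaperone, fell by 1.00, CCNE1 by 0.64 and PCNA, the sliding clamp, by 0.50, while the licensing factor CDT1 rose by 0.80. The core histone gene H2BC9, whose transcripts belong to a family of close copies and are made in S phase, was at 33.2, 34.1, 32.5 and 29.6 CPM and 11.2, 13.9, 14.1 and 15.1 CPM (-1.25 ± 0.14 SE, adjusted p = 3.27e-08). The 41 mitosis genes gave 4 higher and 4 lower (7 and 8 with the block). That was 9.76% in each direction, near the 10.1% of all tested genes. HMMR fell by 0.90 and KIF20A by 0.57, while KIF2C, a motor that takes microtubules apart, rose by 0.37. The higher calls were 2 without high-dose replicate 4 or low-dose replicate 1, with library sizes alone as the scaling and with limma-voom.

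Of 37 checkpoint and fork nuclease genes, 9 were lower and 1 higher (5 lower with no filter on low counts). The nuclease named in the title, MUS81, was at 43.8, 53.02, 51.8 and 50.9 CPM in the low dose and 45.2, 50.1, 58.8 and 45.8 CPM in the high dose, a log2 fold change of 0.00 ± 0.11 (SE, adjusted p = 0.999). Its groups overlapped, with high-dose replicate 3 above and low-dose replicate 1 below all libraries of the other dose. Its 2 alternative partners were both lower: EME1 went from 36.04, 27.3, 40.1 and 29.8 CPM to 26.6, 19.1, 22.9 and 21.4 CPM (-0.56 ± 0.16 SE, adjusted p = 0.0102), and EME2 from 7.77, 6.47, 8.93 and 7.997 CPM to 4.14, 5.22, 3.81 and 2.77 CPM (-0.96 ± 0.27 SE, adjusted p = 0.0105). The EME1 call was lost without low-dose replicate 3 (adjusted p = 0.0503). That of EME2 did not hold without high-dose replicate 4, where its adjusted p was just above the threshold. CHEK1, which encodes CHK1, was not called (0.18 ± 0.15 SE, adjusted p = 0.425). RPA3, the small subunit of the single-strand binding complex, fell by 0.68, TIPIN of the fork protection complex by 0.61 and ETAA1, an activator of ATR, by 0.39. HUS1 of the checkpoint clamp was the 1 that rose, at 0.60. The scaffold SLX4 and the nuclease GEN1 were not called, at -0.06 and -0.02.

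Among 13 genes of the BCL2 family 4 were higher and 0 lower (1 lower with the block). HRK, a BH3-only activator of death known from neurons, was at 9.06, 5.36, 4.79 and 9.81 CPM in the low dose and 24.8, 30.3, 18.9 and 38.2 CPM in the high dose (1.95 ± 0.23 SE, adjusted p = 1.03e-07). BBC3 (PUMA) was at 31.9, 38.3, 27.7 and 29.99 CPM and 84.6, 95.1, 89.96 and 90.1 CPM (1.48 ± 0.15 SE, adjusted p = 2.92e-08). PMAIP1 (NOXA) changed by 0.41, a call lost without high-dose replicate 4 or without low-dose replicate 1 or 3 (adjusted p up to 0.133), and BCL2L2, a guardian, by 0.67. Without low-dose replicate 1 the higher genes numbered 2, and without low-dose replicate 4 BCL2L2 was not called (adjusted p = 0.0615). The guardians MCL1 and BCL2 were not called, at -0.04 and 0.05. The cell cycle inhibitor gene CDKN1A was at 37.5 to 67.6 CPM in DMSO, at 169.8, 129, 80.2 and 113 CPM in the low dose and at 186, 196, 136 and 165 CPM in the high dose. It was called between the low dose and DMSO (1.18, adjusted p = 0.00566) but not between the doses (0.47 ± 0.18 SE, adjusted p = 0.07). The latter was called with the replicate block (adjusted p = 0.00281), without low-dose replicate 1 (0.00458), in which CDKN1A was highest of the low dose, without high-dose replicate 3 (0.0369), with DESeq2 (0.0238) and with limma-voom (0.0156). In edgeR it was also called with no filter on low counts (0.00226) and in replicates 2 and 4 alone (0.00622).

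Genes of neuroblast identity did not share a direction. Of 21 adrenergic genes, 8 were lower and 3 higher (5 higher with the block). HAND1 and HAND2, transcription factors of the sympathetic lineage, fell: HAND1 from 166, 172, 158 and 173 CPM to 108, 85.9, 92.5 and 81.4 CPM (-0.86 ± 0.09 SE, adjusted p = 1.7e-08) and HAND2 from 735, 756, 785 and 831 CPM to 533, 525, 488 and 562 CPM (-0.56 ± 0.09 SE, adjusted p = 8.46e-06). TBX2, another factor of the same circuit, was at 219, 214, 219 and 215 CPM and 348, 360.2, 378 and 369.5 CPM (0.75 ± 0.08 SE, adjusted p = 4.06e-08). MYCN, the amplified oncogene, fell from 1672, 1872, 1579 and 1806 CPM to 1267, 1319, 1200.1 and 1197 CPM (-0.48 ± 0.09 SE, adjusted p = 0.000234), and ISL1 fell by 0.41. GATA3 was not called, at 0.07. SCG2, a secretory granule protein gene, rose by 0.98.

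The neuronal cytoskeleton list had 11 of 29 lower and 2 higher (4 higher with the block, 1 higher without high-dose replicate 4 or low-dose replicate 3). Of the 11 lower genes 6 encode alpha or beta tubulins. TUBB4B was at 242, 273, 251 and 261 CPM and 148, 166, 157 and 138 CPM (-0.75 ± 0.09 SE, adjusted p = 6.16e-08), and TUBB6 fell by 0.89, TUBA4A by 0.65, TUBA1A by 0.63, TUBB2A by 0.52 and TUBA1B by 0.50. Tubulin genes are close copies of one another, and their reads may be shared. MAPT, which encodes the axonal protein tau, went the other way (0.76), and so did TUBB2B (0.48), whose call those 2 libraries carried (adjusted p = 0.0520 and 0.0502 without them). The neurofilament heavy chain NEFH fell from 169.8, 182, 169 and 182 CPM to 136, 109, 85.6 and 124 CPM (-0.63 ± 0.11 SE, adjusted p = 3.75e-05), while NEFL and NEFM were not called, at 0.04 and -0.07.

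Of 41 genes of dynamins and endocytosis, the process on which Dyngo-4a is known to act, 6 were higher and 1 lower, at a median of 0.08. These were 14.6% and 2.44% of the list, against 10.1% in each direction of all tested genes. With the block 10 were higher. DNM2, the dynamin found in most tissues, was at 53.7, 54.6, 53.6 and 53.8 CPM in the low dose and 69.2, 66.8, 69.1 and 70.1 CPM in the high dose (0.35 ± 0.10 SE, adjusted p = 0.0133), a small shift with no overlap. The neuronal dynamins DNM1 (-0.03 ± 0.19 SE, adjusted p = 0.933) and DNM3 (0.38 ± 0.26 SE, adjusted p = 0.33) were not called. FNBP1 and AMPH, which bend membranes and bind dynamin, rose by 0.50 and 0.58, and SNX18 by 0.57. CLTC, the clathrin heavy chain, fell by 0.27, a call lost without high-dose replicate 3 or low-dose replicate 2 or 4 (adjusted p up to 0.0896). The cargo receptor TFRC was not called, at -0.08.

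Some genes had already moved at 1 µM. GCLM, a subunit of the enzyme that makes the glutathione precursor and a target of NRF2, was at 88.4 to 111 CPM in DMSO, 48.1, 49.9, 39.6 and 49.8 CPM in the low dose and 26.03, 35.3, 25.9 and 25.8 CPM in the high dose. It fell by 1.00 on the log2 scale at the low dose (adjusted p = 9.59e-07) and by a further 0.73 between the doses (adjusted p = 2.25e-05). Of 20 genes of the NRF2 pathway 4 were lower and 2 higher between the doses, and 8 were lower with the block. TXNRD1 fell by 0.56 and PRDX1 by 0.44, and NFE2L2, the gene of NRF2 itself, rose by 0.33, a call lost without high-dose replicate 2 or 4 or low-dose replicate 1 or 4 (adjusted p up to 0.118). The 2 higher calls were 1 without any of these or high-dose replicate 3. HMOX1 and NQO1 were called lower at the low dose against DMSO (-1.34 and -0.86) and were not called between the doses (-0.75 and 0.36, adjusted p = 0.0767 and 0.195, and for HMOX1 0.0498 with the replicate block). The letters TGACNNNGC, the core of the antioxidant response element, were in 2 of 3 windows of members called lower, 0 of 2 called higher, 2 of 9 not called and 15.2% of those of tested genes. GCLM and TXNRD1 are printed because they are the members called lower that hold these letters, with the match in capitals and the match farther from the start for TXNRD1.
GCLM, chr1:93909446-93909474, minus strand: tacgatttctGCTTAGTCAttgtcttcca
TXNRD1, chr12:104215670-104215698, plus strand: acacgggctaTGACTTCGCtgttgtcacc
GCLM holds the letters on the opposite strand, beginning at -34, and TXNRD1 at -99.

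Hypoxia and glycolysis genes gave 5 of 34 higher and 5 lower between the doses, 14.7% each way against 10.1% of all tested genes. The lower calls were 3 without high-dose replicate 1 or low-dose replicate 1, 2 or 4, or with no filter on low counts. The members named here differed in their dose patterns. ALDOC, an aldolase, rose at both steps: it was at 2.42 to 3.84 CPM in DMSO, 11.4, 8.84, 15.2 and 14.2 CPM in the low dose and 15.4, 27.7, 27.6 and 28.98 CPM in the high dose. PGK1 rose at the low dose alone (0.72, adjusted p = 0.000266), and between the doses it differed by 0.07, from 240.4, 245, 257 and 292 CPM to 239.6, 254, 271 and 324 CPM. LDHA, lactate dehydrogenase, was at 311 to 389.7 CPM in DMSO, 486, 549, 519 and 630.5 CPM in the low dose and 356, 376, 362 and 429 CPM in the high dose. It was called higher at the low dose (0.62, adjusted p = 0.00206) and lower between the doses (-0.52, adjusted p = 0.000578), so that the high-dose libraries lay near DMSO. The angiogenic factor VEGFA rose from 10.6, 15.8, 15.03 and 11.1 CPM to 37.7, 36.2, 33.9 and 33.2 CPM (1.42 ± 0.17 SE, adjusted p = 1.6e-07), and the glucose carrier SLC2A1 fell by 0.57.

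Whether the second step of dose differed from the first was tested per µM, as the log2 change from 1 to 2.26 µM divided by 1.26 minus the change from DMSO to 1 µM. This contrast was called in 168 genes (1.22%), with 93 positive and 75 negative. With the replicate block the number was 864. It was 61, 76, 77 and 69 without low-dose replicate 1, 2, 3 and 4, and 110 and 109 without DMSO replicate 1 and 2. Genes called in it were ranked where they had a symbol and a mean log2 CPM of 3 or more. The most positive of these were CHAC1 (2.32), SLC7A11 (2.22), INHBE (2.12), ULBP1 (1.96) and ARHGEF40 (1.65). SLC3A2 (1.05, adjusted p = 0.000158) and CARS1 (1.12, adjusted p = 0.000158) were called as well. The most negative of the ranked genes were RGS4 (-1.90), IPO5P1 (-1.53), PARVA (-1.46), GATM (-1.30) and MARVELD1 (-1.28). MARVELD1, a membrane protein gene, rose and then fell: it was at 36.3 to 38.1 CPM in DMSO, 56.97, 52.7, 58.4 and 51.3 CPM in the low dose and 33.3, 22.9, 32.3 and 27.1 CPM in the high dose. RGS4, a brake on G protein signalling, was at 2.09 to 5.44 CPM, 9.28, 7.73, 11.8 and 13.99 CPM and 6.31, 4.86, 7.98 and 9.41 CPM, and its second step was not called by itself (adjusted p = 0.144). IPO5P1 is a pseudogene, and its reads may belong to IPO5, which was not called between the doses (0.05, adjusted p = 0.788). METTL7A rose at both steps, by 0.91 at the low dose (adjusted p = 7.29e-06) and by 0.35 between the doses (adjusted p = 0.0153), the latter call lost without low-dose replicate 3 (0.0680).

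**Figure D4:**
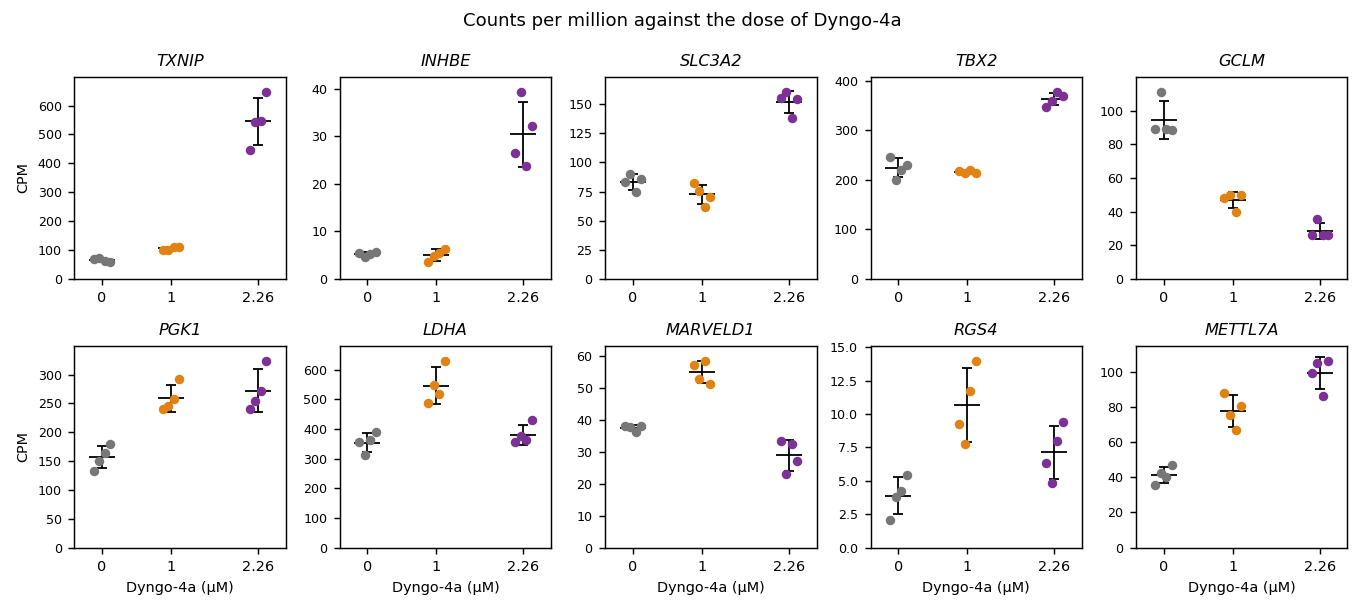
Each panel gives 1 gene, with CPM on a linear vertical axis from 0 and the dose of Dyngo-4a in µM on a linear horizontal axis. Points are the 4 libraries of a dose, the bar is their mean and the whiskers 1 SD. TXNIP, INHBE, SLC3A2 and TBX2 change mainly between 1 and 2.26 µM, with a smaller rise of TXNIP already at 1 µM. GCLM and METTL7A change at both steps, PGK1 at the first, and LDHA, MARVELD1 and RGS4 are highest at 1 µM.

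Of 24 cholesterol synthesis genes, 9 were called higher and 1 lower. SREBF2, the gene of the factor that drives the pathway, was at 99.9, 87.1, 82.8 and 91.2 CPM in the low dose and 109, 146, 119 and 154 CPM in the high dose (0.55 ± 0.10 SE, adjusted p = 0.000169). FDFT1, which commits the pathway to sterols, rose by 0.58. HMGCS1 rose by 0.44 with overlapping groups. FDPS, which stands just before FDFT1, fell by 0.29, a call lost without high-dose replicate 2 or low-dose replicate 3 (adjusted p up to 0.0615).

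Outside these lists, the largest rises included ULBP1, a stress ligand for natural killer cells, at 2.81, 4.58, 3.49 and 5.82 CPM in the low dose and 27.4, 26.8, 19.4 and 33.2 CPM in the high dose (2.65 ± 0.24 SE, adjusted p = 2.23e-10). INHBE, an inhibin subunit gene, was at 3.45, 4.73, 5.45 and 6.36 CPM and 26.4, 39.3, 23.8 and 32.1 CPM (2.59 ± 0.21 SE, adjusted p = 2.71e-11). Both had low-dose levels close to DMSO (3.22 to 4.26 and 4.51 to 5.60 CPM). TRIM66 and FOXC1 rose by 1.86 and 1.56. The largest falls included SYNGR4, a synaptogyrin, from 18.99, 21.6, 19.8 and 24.4 CPM to 6.70, 8.28, 8.52 and 3.51 CPM (-1.65 ± 0.19 SE, adjusted p = 7.17e-08), and IGFBP5, a secreted binding protein of insulin-like growth factors, from 418, 473, 561 and 401 CPM to 188, 144, 172 and 110.2 CPM (-1.59 ± 0.17 SE, adjusted p = 6.95e-07). PIGW, an enzyme of the glycolipid anchor, was at 27.4, 25.1, 23.96 and 19.6 CPM and 7.69, 9.004, 8.34 and 6.64 CPM (-1.59 ± 0.18 SE, adjusted p = 2.45e-08). HPDL fell by 1.63, GATM, the first enzyme of creatine synthesis, by 1.37, LFNG, a glycosyltransferase that modifies Notch, by 1.27 and FGFRL1 by 1.27. The noncoding genes TMPO-AS1 and LINC01828 fell by 1.32 each. The genes of this group were chosen among called genes with a symbol and a mean log2 CPM of 3 or more. Their high-dose and low-dose libraries also had to be without overlap, so that trait is not a result. Larger changes lay outside this choice. Over all tested genes the log2 fold change ran from -3.36 to 5.65. Of the called genes, 19 were at least 4-fold higher and 11 at least 4-fold lower.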

How the data were processed

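RNA of IMR-32 cells was sequenced from the 3′ end with molecular identifiers (QuantSeq), in 20 libraries of 5 groups of 4. The authors deposited 1 table of raw counts of 58787 genes, with no normalization. Per the submitters' processing notes, FastQC 0.11.7, STAR 2.7.2b, edgeR 3.36.0, limma 3.50.3 and the build GRCh38 were named. The strand setting of the counting was not stated. Of these genes 58515 had coordinates in GENCODE release 29.

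Columns were assigned to libraries, and libraries to groups, by their labelled titles. Genes were kept by edgeR's filter (minimum count 10, minimum total 15), which left 13729 genes and 99.58% to 99.75% of the counts of a library. In R 4.3.3, edgeR 4.0.16 with TMM scaling (factors 0.968 to 1.03) and a robust quasi-likelihood fit with a term for each group was run on all 20 libraries (residual degrees of freedom 15, biological coefficient of variation 12.46% in common). P-values were adjusted over all tested genes by Benjamini-Hochberg, with a threshold of 0.05, and the SE of a log2 fold change is its size divided by the root of F. CPM values use TMM-scaled library sizes. The fit was tested on simulated data. Alternatives were other scalings and filters, DESeq2 1.42.0, limma-voom (limma 3.58.1), fewer libraries and the replicate number as a block.

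Deviations from the group means correlated at 0.128, 0.110, 0.179 and 0.298 in same-numbered low-dose and high-dose libraries 1 to 4. Different-numbered libraries gave -0.198 to 0.118, a range that overlaps these values. Still, each same-numbered value was the highest for both of its libraries. Values between replicate 1 or 3 and replicate 2 or 4 were all negative (-0.198 to -0.0112). The numbers were therefore treated as a possible pairing, used as a block in an alternative fit. The fit reported above has no term for them. Such a pairing would come from the data, since the labels do not say what a number shares. Blocked values are printed where they change the call of a named gene or move a count by over 1.5 times.

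The comparison and the gene lists were chosen with earlier results of these data known. The rule for named genes took the 12 largest rises and the 12 largest falls between the doses (called, libraries without overlap, mean log2 CPM 3 or more), the 3 called members of smallest p in each list with at least 3 calls, the 6 genes of smallest p in the low dose against DMSO, the 5 largest values of either sign in the contrast of steps, and DNM1, DNM2, DNM3, MUS81, EME1, CHEK1, MYCN and CDKN1A. The text names a subset of these. Other members are named for their role, after their values were seen. Of 160 list members looked up, 128 matched a RefSeq promoter window. For 1 list and some genes the results are not reported here.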

Additional observations from a re-analysis of the deposited data

Results flagged for a closer look

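For 223 genes named in the text, each group of 4 libraries was searched for 1 library far from the other 3, by Dixon's test at the 95% level. Of 446 groups 21 held one, and chance flags about 1 in 20 groups. In high-dose replicate 1 ALDOC was at 15.38 CPM against 27.57 to 28.98 in the others, SNHG8 at 137.5 against 173.8 to 179.2 and NBR1 at 144.2 against 162.6 to 162.9. In high-dose replicate 2 GCLM was at 35.3 CPM against 25.8 to 26.0, HSPA5 at 416 against 286.5 to 296.7 and SESN2 at 100.5 against 66.6 to 70.8. In high-dose replicate 3 ARHGEF40 was at 20.86 CPM against 14.03 to 14.59, and HMMR at 39.4 against 54.0 to 54.8. In high-dose replicate 4 KIF20A was at 55.4 CPM against 39.7 to 41.8, NQO1 at 20.1 against 12.9 to 14.1, PDIA4 at 63.7 against 46.8 to 48.9, PSMD12 at 140.6 against 118.3 to 121.3 and SLC6A9 at 4.06 against 7.92 to 8.52. In low-dose replicate 1 SRSF6 was at 245 CPM against 201.7 to 207.9. In low-dose replicate 2 RRM2 was at 229 CPM against 199.4 to 203.5, TRIM66 at 3.16 against 5.09 to 5.23 and VARS1 at 103 against 84.0 to 85.6. In low-dose replicate 3 GATA3 was at 1262 CPM against 1099 to 1119, GCLM at 39.6 against 48.1 to 49.9, NDUFS6 at 189 against 206.1 to 207.6 and RBM39 at 524 against 477.8 to 485.0.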

How the results depend on the processing

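Between the doses, edgeR called 2442 to 2771 genes with other scalings, filters or sets of groups (1254 higher and 1517 lower with library sizes alone), DESeq2 2903, limma-voom 2777, and edgeR 3980 with the replicate block (1941 higher, 2039 lower), and 2160 to 2516 with single libraries left out (1142 to 1308 higher, 991 to 1251 lower). Replicates 1 and 3 alone gave 1457 calls (730 higher, 727 lower) and replicates 2 and 4 alone 1588 (802 and 786), with fewer libraries. In each of these settings 0 genes called in both it and the fit reported above had opposite signs. The contrast of the dose steps moved more. DESeq2 gave 347 genes (193 positive and 154 negative) and the block 864 (440 and 424). The sign is that of the contrast, so a larger fall at the second step also counts as negative. With only the 3 groups compared the negative values numbered 48. Replicates 1 and 3 alone gave 55 (30 and 25) and replicates 2 and 4 alone 13 (8 and 5), and leaving out single libraries gave 61 to 221 (38 to 125 and 23 to 96). The cause was not tested. Of 184 named genes that were called, 128 kept the call in every setting and 56 lost it in at least 1, and 6 of 39 that were not called gained one. With no filter on low counts, EIF2AK3, CLTC, CRELD2, FDPS, GLA and SLC7A6 lost theirs in edgeR (adjusted p of 0.0641 to 0.119). Over all 4013 values of named genes under other settings 0 changed sign where the gene was called in either setting. Some that were not called did, such as MUS81, from -0.129 to 0.140, and DNM1, from -0.288 to 0.274. Genes of a few CPM rest on few counts in a library, and small differences in them were not detectable at this depth.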

Other observations

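Of 22 tested immediate early genes, which cells switch on within minutes of a stimulus, 7 were higher and 1 lower in the high dose of Dyngo-4a than in the low dose, at a median log2 fold change of 0.34 (edgeR quasi-likelihood test, Benjamini-Hochberg adjusted p under 0.05). JUN was at 61.7, 61.4, 54.2 and 76.9 CPM in low-dose replicates 1 to 4 and at 110.4, 125, 90.5 and 147 CPM in high-dose replicates 1 to 4 (0.89 ± 0.15 SE, adjusted p = 9.51e-05). KLF10 was at 19.9, 28.1, 17.4 and 23.99 CPM and 33.3, 41.96, 47.5 and 51.9 CPM (0.96 ± 0.16 SE, adjusted p = 4.64e-05). EGR1, a zinc finger factor, changed by 1.19, DUSP4, a phosphatase that acts on MAP kinases, by 1.46, ETV5 by 1.21 and NR4A1 by 0.60. ATF3, given above among the ATF4 axis, was the seventh. IER3 fell by 0.51. The calls of NR4A1 and IER3 did not hold without single libraries: for NR4A1 high-dose replicate 1 or low-dose replicate 1 or 3 (adjusted p up to 0.0838), and for IER3 high-dose replicate 2 or 3 or low-dose replicate 1 or 3 (adjusted p up to 0.0973). FOS, at 1.51, 0.316, 0.871 and 0.545 CPM and 1.58, 2.52, 2.18 and 1.11 CPM, was not called (1.23, adjusted p = 0.0947), but was without low-dose replicate 1 (0.0450).

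Genes of autophagy and the lysosome were called in 5 of 36 cases, 3 higher and 2 lower. These were 8.33% and 5.56% of the list, below the 10.1% in each direction of all tested genes. The higher calls were 5 with the replicate block and 1 without high-dose replicate 3 or low-dose replicate 1. NBR1, a receptor that brings ubiquitin-tagged cargo to the autophagosome, went from 99.3, 98.8, 86.3 and 94.7 CPM to 144, 163, 163 and 163 CPM (0.74 ± 0.09 SE, adjusted p = 2.09e-07), and SQSTM1 (p62), a receptor of the same kind, from 75.7, 80.6, 76.9 and 74.2 CPM to 61.1, 55.3, 60.6 and 43.7 CPM (-0.48 ± 0.10 SE, adjusted p = 0.000523). TFEB, a factor that drives lysosome genes, changed by 1.40, and the lysosomal hydrolase GLA fell by 0.50. Both calls were lost without some single libraries: TFEB without high-dose replicate 3 or low-dose replicate 1 or 4 (adjusted p up to 0.0798) and GLA without high-dose replicate 2, 3 or 4 or low-dose replicate 2 or 4 (up to 0.127). Of 30 genes of synaptic vesicles and exocytosis 3 were higher (5 with the block) and 2 lower. These were 10% and 6.67% of the list, not above the 10.1% of all tested genes. SYT11, a synaptotagmin, was at 78.6, 84.9, 74.5 and 84.3 CPM and 118, 121, 109 and 126 CPM (0.56 ± 0.10 SE, adjusted p = 9.42e-05). SYT4 and SYN2 changed by 0.62 and 0.40. CPLX1 fell by 0.39, and the other lower gene, SYNGR4, is given above.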
